A study of Homo sapiens with 6 samples.

Results

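Paxillin and its focal adhesion partners were measured in BCWM1 cells, a human line grown from Waldenström macroglobulinemia, a lymphoma whose cells lie between the B cell and the plasma cell. The genes are PXN, LPXN, PTK2, PTK2B, VCL, TLN1, ZYX, ILK, BCAR1 and PARVB, 10 of 19775 genes named on the array. They were chosen for their role in focal adhesions with the measured difference between the groups in view, PXN in particular. All 26 probe sets that the platform annotation gives to 1 of these genes alone were taken, and 20 of them were bright enough for the fit across the whole table.

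The study compared 2 groups of BCWM1 cells, with 3 samples in each. Parental cells carried no change named in the labels, and mutated cells carried the change that the series title writes as C1013G/CXCR4. CXCR4 is the receptor of the chemokine CXCL12. How the mutated cells were derived, whether they were 1 clone and whether a vector control was run was not stated in the labels, and a change of 1 base cannot be checked from expression values. The samples are not stated to be separate cultures, so the spread between them may be technical.

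Focal adhesions are clusters of proteins that tie integrins, the receptors for extracellular matrix, to the actin cytoskeleton. Talin and vinculin carry the mechanical link, paxillin and p130Cas are scaffolds that gather kinases and adaptors, and focal adhesion kinase and its relative PYK2 phosphorylate those scaffolds. In lymphoid cells, which do not spread as fibroblasts do, leupaxin and PYK2 are the better known members of their families, and chemokine receptors signal to paxillin and PYK2 when cells adhere and migrate.

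PXN and LPXN were each lower in mutated cells on 1 of 2 probe sets. Several structural genes were slightly higher on their brightest ones. PXN went from a mean intensity of 104 to 13.3 on its brightest probe set, a mutated level that is not shown to be above background, so the size of its fall is rough. LPXN fell by 45.1% and PTK2B by 22.8%, while VCL rose by 33.4%, PARVB by 30.6% and ILK by 14.5%. BCAR1 was 31.9% higher on a dim probe set, and PTK2, TLN1 and ZYX did not pass on their brightest probe sets. "Rose" and "fell" are used here only of values past an adjusted p of 0.05 in the fit of all 32768 tested probe sets (limma with Benjamini-Hochberg adjustment). Since the same contrast was in view when the genes were chosen, these calls describe the genes, no p is given for them and no support is drawn from them. A gene is represented by its brightest tested probe set, and differences are on the log2(intensity + 16) scale, which understates the change of dim genes. With each gene represented in this way, 3 of the 10 fell, 4 rose and 3 did not pass. Of all 13644 genes tested, 18.9% fell and 30.1% rose, together 49.0%. Of these calls 61.5% were higher in mutated cells, but 49.4% with quantile normalization and 46.1% with each array centred on its median.

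**Figure D1:**
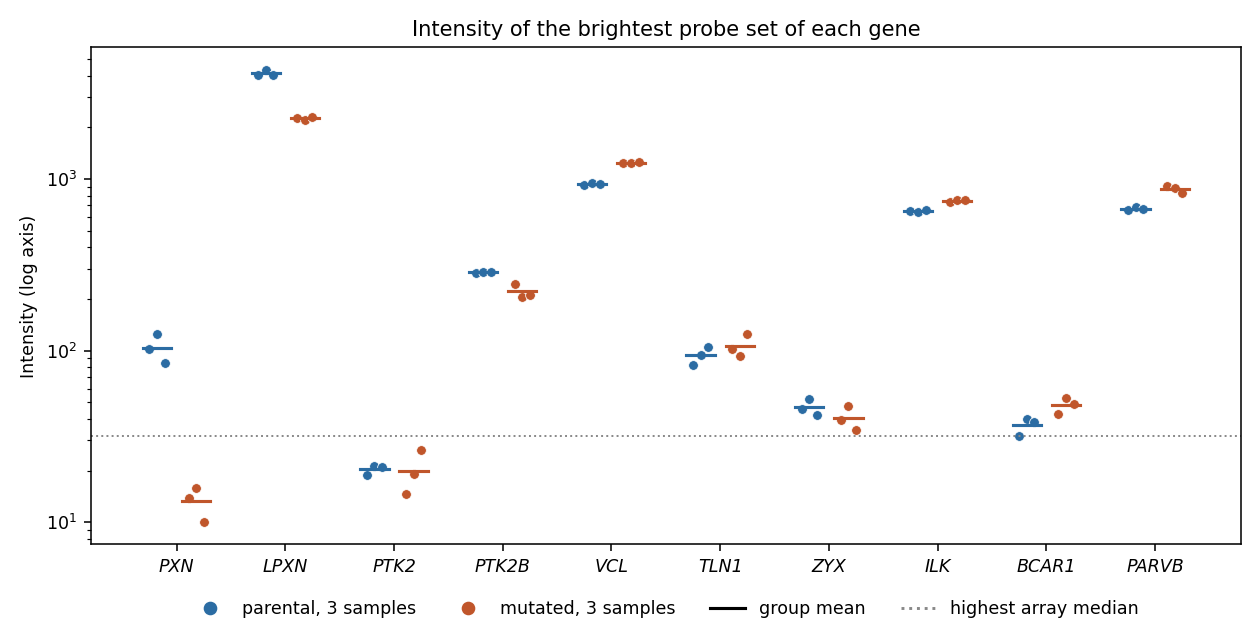
Intensity (log axis) of the brightest probe set of each of the 10 genes in the 3 parental (blue) and 3 mutated (orange) samples, with a bar at each group mean and a dotted line at the highest array median, 31.83. PXN drops from values of 84.9 to 126 to values under the dotted line, LPXN and PTK2B sit lower in mutated cells, and VCL, ILK, BCAR1 and PARVB sit higher. Heights are not comparable between genes, since probe sets differ in how brightly they bind.

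Median intensity was 28.46 to 29.13 on the parental arrays and 30.93 to 31.83 on the mutated arrays, so every mutated array was brighter. Centring the arrays on their medians left 2 of the 4 genes that rose, VCL and PARVB. Markers of B cells were bright in both groups, with MS4A1 at 10426 ± 184 in parental and 10233 ± 329 in mutated cells (SD, n = 3). The brightest probe sets of 5 B cell markers summed to 20363 to 21081 in parental and 20609 to 21480 in mutated samples. Of these 5, CD79B (0.63) and CD79A (0.23) rose, CD22 fell by 0.41 on the log2 scale, and MS4A1 and PAX5 did not pass. Other tested probe sets gave −0.21 and 0.17 for CD79B, 0.13 for CD79A and −0.71 to −0.27 for CD22. Plasma cell markers were lower in mutated cells: their sum over 6 genes was 20852 to 21658 against 13950 to 14440, and 5 of 6 fell. Among those that fell, other tested probe sets ran from −0.26 to 0.74 for IGHM, so its direction differed between probe sets. They ran from −0.96 to −0.50 for PRDM1, and that of SDC1 gave −1.09. Of the marker genes of T cells, 5 of 6 had a mean under the highest array median of 31.83, as did 3 of 4 of myeloid cells, 4 of 5 of epithelial cells, 4 of 5 of platelets and 4 of 6 of stromal cells. The exceptions were CD2, ITGAX, KRT8 and GP1BA, whose means over all 6 samples were at most 43.3, and DCN and COL1A1. COL1A1 read 710 ± 44.1 in parental and 442 ± 42.9 in mutated cells (SD, n = 3). The other 4 tested COL1A1 probe sets ran from −0.32 to 0.13 on the log2 scale, so their direction was mixed. The part of the lower plasma cell markers in the results below was not tested. In bulk RNA, fewer cells that express a gene and less RNA per cell cannot be told apart.

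PXN encodes paxillin, the scaffold that binds focal adhesion kinase and vinculin through its LD motifs and reaches focal adhesions through its LIM domains. Probe set 201087_at read 102, 126 and 84.9 in the parental samples and 13.9, 15.9 and 10.1 in the mutated samples. Every mutated value lay below every parental value and below the highest array median of 31.83. The means were 104 ± 20.5 and 13.3 ± 2.96 (SD, n = 3), a log2 difference of −2.03 (SE 0.14). Of the 13644 genes, 51 had a lower log2 difference, whether called or not. The probe set entered the fit through the parental group, where it is high, and the size depended on the pseudocount: it was −2.88 with a pseudocount of 1 and −1.12 with 64. The other PXN probe set, 211823_s_at, read 1.98, 6.78 and 8.06 in parental and 6.59, 10.3 and 3.26 in mutated samples. These groups overlapped, and the probe set was too dim to be tested, so the PXN difference rests on 1 probe set. Which transcripts either probe set reads was not analysed here.

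LPXN encodes leupaxin, the paxillin relative of leukocytes, which has LD motifs and LIM domains as well and binds PYK2. Probe set 216250_s_at read 4019, 4309 and 4029.6 in parental and 2274, 2210.4 and 2298 in mutated samples. The lowest parental value was well above the highest mutated one. The means were 4119 ± 164 and 2261 ± 45.5 (SD, n = 3), a log2 difference of −0.86 (SE 0.051). A lower log2 difference, called or not, was seen in 293 of the 13644 genes. The second LPXN probe set, 242778_at, did not show the difference: it read 121, 129 and 109 in parental and 127, 109 and 133 in mutated samples. Its groups overlapped, with a log2 difference of 0.031 (SE 0.087), so the fall of LPXN also rests on 1 of 2 probe sets. As the mean of both probe sets LPXN still fell, by 0.41 on the log2 scale.

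The start regions of both paxillin genes are printed below with that of VCL. They were picked because, among the representative probe sets, the relatives PXN and LPXN were both lower and VCL had the largest rise. Sequences are from RefSeq (GRCh38.p14), 250 bases upstream of the first listed transcript start, 5′ to 3′ on the gene's own strand. Capitals mark the GC box, GGGCGG or its reverse complement CCGCCC, to which transcription factors of the SP family bind. The PXN window lies on the minus strand at chr12:120265731-120265980, the LPXN window on the minus strand at chr11:58578134-58578383 and the VCL window on the plus strand at chr10:73997866-73998115. The LPXN window lies inside the annotated span of LPXN (58526871 to 58578891), which extends further upstream.
PXN: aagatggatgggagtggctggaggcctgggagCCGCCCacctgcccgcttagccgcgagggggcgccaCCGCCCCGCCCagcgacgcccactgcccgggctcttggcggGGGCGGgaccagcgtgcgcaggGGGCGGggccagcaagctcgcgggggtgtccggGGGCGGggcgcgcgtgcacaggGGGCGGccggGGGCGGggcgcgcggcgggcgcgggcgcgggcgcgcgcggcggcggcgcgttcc
LPXN: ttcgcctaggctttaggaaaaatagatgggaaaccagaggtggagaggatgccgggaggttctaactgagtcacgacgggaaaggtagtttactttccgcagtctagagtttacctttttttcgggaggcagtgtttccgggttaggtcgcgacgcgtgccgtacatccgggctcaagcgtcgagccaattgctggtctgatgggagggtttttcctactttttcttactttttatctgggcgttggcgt
VCL: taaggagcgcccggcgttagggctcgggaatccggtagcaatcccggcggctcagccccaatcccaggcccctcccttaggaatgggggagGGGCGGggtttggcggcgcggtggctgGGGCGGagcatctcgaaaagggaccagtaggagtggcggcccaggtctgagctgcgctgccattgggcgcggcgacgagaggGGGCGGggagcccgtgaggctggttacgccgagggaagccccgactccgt

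The printed windows of the paxillin genes differ in composition, but PXN and LPXN each have a second listed start. The second PXN window held 53.6% G and C, 0 GC boxes and 1 CCAAT box, and the second LPXN window 36.4%, 0 and 1, so the contrast in GC boxes applies to the printed windows. G and C made up 83.6% of the PXN window, 50.8% of the LPXN window and 70.4% of the VCL window, against a median of 58.0% over all 35116 windows of this length. The GC box matched 8 times in the PXN window, overlapping matches counted, 3 times in the VCL window and 0 times in the LPXN window. Of all windows, 42.6% held at least 1 match on either strand. The LPXN window held 1 match to the AP-1 motif, TGANTCA, which was present in 6.57% of all windows and not in the PXN or VCL windows. It also held 1 CCAAT box (CCAAT or ATTGG, in 32.0% of windows), of which the VCL window held 2 and the PXN window 0. The VCL window held 1 match to the NF-kB motif, present in 9.96% of all windows, and the PXN and LPXN windows held 0. Among the windows not printed, the first of BCAR1 also held the AP-1 motif. Windows of ZYX, BCAR1 and PARVB held the NF-kB motif as well, and windows of TLN1, ZYX, ILK, BCAR1 and PARVB held GC boxes. The motif of the serum response factor, the CArG box, matched in 1.16% of all windows and in none of the 15 windows of the 8 genes searched here. A match is a string of letters and not a site shown to be bound.

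The kinases that act with paxillin differed from each other. PTK2B encodes PYK2, a calcium-responsive tyrosine kinase of the focal adhesion kinase family. Probe set 203110_at read 284, 288 and 288 in parental and 246, 206 and 212 in mutated samples. The parental values lay close together and above all mutated values, with means of 287 ± 1.97 and 221 ± 21.4 (SD, n = 3) and a log2 difference of −0.35 (SE 0.072). The second probe set, 203111_s_at, was lower in the same direction, at 55.7, 48.3 and 56.4 against 26.2, 21.3 and 33.4, with a log2 difference of −0.70 (SE 0.11). PTK2B thus fell on both of its probe sets, although the mutated mean of the second, 27.0, lay under the highest array median of 31.83. LPXN fell on 1 of 2 tested probe sets, and PXN on the only 1 that was tested.

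PTK2 encodes focal adhesion kinase itself and read at the dim end of the array. Its brightest probe set, 207821_s_at, read 18.8, 21.4 and 21.0 in parental and 14.5, 19.0 and 26.5 in mutated samples. The groups overlapped, with a log2 difference of −0.027 (SE 0.12), and every value lay under the highest array median of 31.83. Its other 3 probe sets were not tested, and all their values lay between 1.00 and 12.7. On 1 of them, 208820_at, the groups did not overlap, at 8.59 to 12.7 in parental and 4.57 to 7.53 in mutated samples. A difference in PTK2 was not detectable at these intensities, which does not show that its mRNA was equal.

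VCL and TLN1 carry the mechanical link between integrins and actin. VCL encodes vinculin, which binds talin, paxillin and actin. Probe set 200931_s_at read 919.5, 941 and 932 in parental and 1239, 1231 and 1256 in mutated samples. The groups were far apart relative to their spread, with means of 931 ± 10.9 and 1242 ± 12.5 (SD, n = 3) and a log2 difference of 0.41 (SE 0.044). The other VCL probe set was not tested, with values of 6.02 to 10.7 in parental and 7.94 to 10.1 in mutated samples.

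TLN1 encodes talin 1, which binds integrin tails and activates them. Its brightest probe set, 203254_s_at, read 82.2, 94.3 and 105 in parental and 102, 92.8 and 124 in mutated samples. The groups overlapped, with a log2 difference of 0.15 (SE 0.12) that turned to −0.050 with quantile normalization. A dimmer probe set, 236132_at, read 49.5, 61.4 and 55.6 against 99.1, 84.5 and 95.7, and rose by 0.61 (SE 0.083). The third probe set was not tested and also had all mutated values (8.10 to 14.3) above all parental ones (3.75 to 7.03). The TLN1 probe sets therefore disagree on size, and the mean over the 2 tested ones rose by 0.38.

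ILK and PARVB belong to the complex of integrin-linked kinase, PINCH and parvin, which joins integrin tails to actin. ILK encodes the pseudokinase at its centre and has 1 probe set, which read 654, 642 and 661 in parental and 733, 754 and 753 in mutated samples. The groups did not overlap, with means of 652 ± 9.65 and 747 ± 11.8 (SD, n = 3) and a log2 difference of 0.19 (SE 0.045). This small rise did not pass when each array was centred on its median (0.11).

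PARVB encodes beta-parvin, an actin-binding partner of ILK, and has 6 probe sets, all tested. The brightest, 37966_at, read 656, 686 and 664 in parental and 912, 884 and 825 in mutated samples. These groups did not overlap, with a log2 difference of 0.38 (SE 0.056). Probe set 37965_at rose by 0.35 and 216253_s_at by 0.44. Probe set 204629_at had every mutated value above the parental ones, at 454 to 528 against 406 to 444, but did not pass (0.19, SE 0.071). Probe sets 229822_at (−0.083, SE 0.084) and 216254_at (−0.0062, SE 0.091) overlapped between the groups. PARVB thus rose on 3 of 6 probe sets and was not called lower on any.

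BCAR1 encodes p130Cas, a scaffold that is phosphorylated when cells adhere and recruits CRK. Probe set 223116_at read 31.8, 39.97 and 38.2 in parental and 42.9, 53.3 and 48.8 in mutated samples. The groups did not overlap, with a log2 difference of 0.29 (SE 0.088). The second probe set read 21.0, 28.5 and 11.7 against 32.8, 36.3 and 33.3, with a log2 difference of 0.49 (SE 0.16). Both lay near the array median, and the call on the brighter one was lost with quantile normalization (0.17), with median centring (0.21), without the filter on dim probe sets and with the trend and robust options (0.29 in both). It was also lost without parental replicate 1 (0.22) or 3 (0.31) or mutated replicate 2 (0.23) or 3 (0.28).

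ZYX encodes zyxin, a LIM protein that moves to strained adhesions and actin fibres. Probe set 200808_s_at read 45.9, 52.4 and 42.1 in parental and 39.6, 47.3 and 34.4 in mutated samples, and the groups overlapped (−0.16, SE 0.10). Its dimmer probe set, 215706_x_at, went the other way, at 16.01, 16.5 and 13.9 against 17.1, 27.2 and 31.5 (0.38, SE 0.13), and did not pass. ZYX gave no call in either direction.

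**Figure D2:**
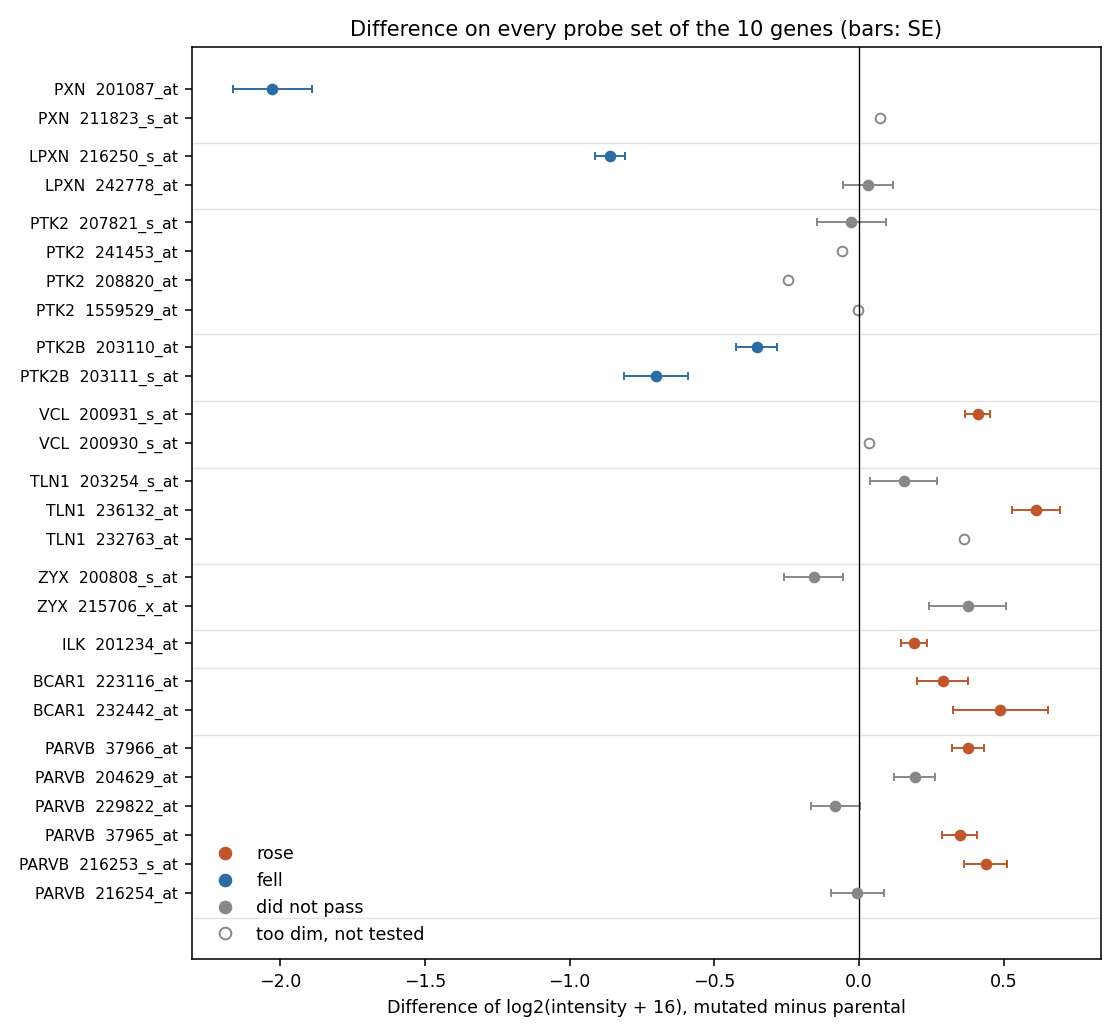
Difference of log2(intensity + 16), mutated minus parental, on each of the 26 probe sets, with bars of 1 SE for the 20 tested. Open circles are the 6 that were too dim to be tested. Blue marks the 4 that fell (PXN, LPXN and both of PTK2B), orange the 8 that rose, and the PXN and LPXN points are not matched by the second probe set of either gene.

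Counted by probe set, 8 of the 20 tested rose, 4 fell and 8 did not pass, where 47.5% of all tested probe sets were called. The groups did not overlap on 14 of the 20, with mutated values above on 10 and below on 4, against 57.8% of all tested probe sets. The 6 untested probe sets had values between 1.00 and 14.32 in all samples. The median log2 difference over the 10 genes was 0.063, beside 0.038 over all genes tested. These shares are set beside the background and nothing is read from them, since the genes were chosen on this contrast.

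The pattern of PXN over the 6 samples was most like that of FMNL3, LOC100129034, NUP37, APOL1 and ABCA5, the genes with the highest Pearson's r with PXN probe set 201087_at. These r values were 0.9994, 0.9990, 0.9989, 0.9987 and 0.9986 over 6 samples, which form 2 groups, so r mainly follows the difference between groups. All 5 were lower in mutated cells, which follows from choosing them by r with PXN. Their differences were much smaller than that of PXN, whose size is rough. FMNL3, a formin that assembles actin filaments, went from 199.8 ± 9.55 to 127 ± 3.23 (SD, n = 3), a log2 difference of −0.59, and NUP37, a nuclear pore protein, from 2640.3 ± 30.3 to 2414 ± 15.04, a difference of −0.13.

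The rest of the focal adhesion machinery was taken from 7 lists of 54 genes in all that do not include the 10. Of these, 47 were tested: 13 fell, 8 rose and 26 did not pass, so 44.7% were called, against 49.0% of all genes. Their median log2 difference was −0.071, beside 0.038 for all genes. PAK1 and CRK had no probe set of their own symbol alone and were not analysed here, and ENAH, CASS4, TNS2 and TNS4 were too dim. The adjusted p-values that follow are from limma with Benjamini-Hochberg adjustment over all tested probe sets. The lists were chosen with earlier results of these data known, so these values describe the genes and are not independent tests.

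Among the partners that bind paxillin or act on it, 3 of 9 tested genes rose, 0 fell and 6 did not pass. GIT2, an ARF GTPase-activating protein that docks on paxillin, rose from 542 ± 20.1 to 681 ± 21.1 (SD, n = 3), a log2 difference of 0.32 (adjusted p = 0.0030). Its other 2 tested probe sets gave −0.35 and −0.12, so its direction differed between probe sets. NCK1, an SH2 adaptor, rose by 0.32 (adjusted p = 0.0033) and ARHGEF6, the exchange factor alpha-PIX, by 0.28 (adjusted p = 0.0088). TGFB1I1, which encodes Hic-5, the remaining member of the paxillin family, was dim at 25.5 ± 3.6 and 22.9 ± 2 (SD, n = 3) and did not pass. ARHGEF7 did not pass on its brightest probe set (0.12), while its other 7 tested probe sets ran from −0.20 to 1.81.

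In the ILK-PINCH-parvin list, 1 of 5 tested genes fell, 0 rose and 4 did not pass. The gene that fell was PARVG, the parvin of blood cells, from 354 ± 20.6 to 192 ± 14.2 (SD, n = 3), a log2 difference of −0.83 (adjusted p = 1.9e-04). Its other probe sets ran from −0.39 to 0.13. On the brightest probe sets, PARVG was lower where its relative PARVB was higher, but the other probe sets of both genes did not all follow. Of the genes of talins, kindlins and integrin activation, 5 of 10 fell, 2 rose and 3 did not pass. RAPGEF1, a RAP1 exchange factor, fell from 919.8 ± 26.2 to 570.1 ± 21.8 (SD, n = 3; adjusted p = 1.2e-04), with −0.56 and 0.47 on its other tested probe sets. FERMT2, kindlin-2, fell by 0.36 (adjusted p = 0.0034) and was lower on its other probe sets as well (−0.52 and −0.46). The remaining 3 that fell, named after their values were seen, were APBB1IP by 0.24, RAP1A by 0.19 and RAP1B by 0.18. APBB1IP and RAP1A had other probe sets of opposite sign, and RAP1B did not pass with the replicate number as a block (adjusted p = 0.077). APBB1IP did not pass without mutated replicate 2 (−0.22), RAP1A without parental replicate 3 (−0.17) or mutated replicate 1 (−0.18), and RAP1B without parental replicate 2 or 3 or mutated replicate 1 or 2 (−0.19 to −0.15). TLN2, the second talin, rose from 32.2 ± 5.22 to 64.4 ± 3.17 (SD, n = 3), a log2 difference of 0.74 (limma, adjusted p = 6.9e-04). Its other tested probe set gave 0.78. The parental mean of TLN2 was dim, near the highest array median of 31.83, so this size is rough. KANK2 rose by 0.28 (adjusted p = 0.0085), with −0.063 on its other probe set.

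In the list of the zyxin family and the Ena/VASP actin regulators, 3 of 7 tested genes fell, 1 rose and 3 did not pass. AJUBA, a LIM protein related to zyxin, rose from 9.49 ± 4.55 to 80.2 ± 14.6 (SD, n = 3), a log2 difference of 1.92. Its parental level is not shown to be above background and it entered the fit through the mutated group, so this size is rough. Another AJUBA probe set gave 2.01. The remaining tested one gave 0.12, and it represented the gene, without passing, with a pseudocount of 1 (0.17) and without mutated replicate 1 (0.16) or 2 (0.086). VASP fell from 1734 ± 60.5 to 1259.7 ± 9.14 (SD, n = 3; adjusted p = 4.6e-04), EVL by 0.37 (adjusted p = 0.0041) and the dim FBLIM1 by 0.52 (adjusted p = 0.029). FBLIM1 did not pass without parental replicate 1 or 2 (−0.49 in both), without the filter on dim probe sets or with a pseudocount of 1 (adjusted p = 0.056 in both). In the Cas, Crk and DOCK list, 2 of 5 fell, 2 rose and 1 did not pass. NEDD9, the Cas relative of lymphoid cells, fell from 2291 ± 79.4 to 1211 ± 35.7 (SD, n = 3), a log2 difference of −0.91 (adjusted p = 3.1e-05), with −1.31 to −0.10 on its other probe sets. EFS, another Cas protein, fell by 0.28 (adjusted p = 0.031) at dim values, and ELMO1 (0.38, adjusted p = 0.0034) and CRKL (0.28, adjusted p = 0.011) rose. EFS did not pass without parental replicate 1 or 2 or mutated replicate 2 or 3 (−0.27 to −0.23), nor without the filter on dim probe sets (adjusted p = 0.061), with the trend and robust options (0.086) or with a pseudocount of 64 (0.054).

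Of the Src family kinases and their regulators, 2 of 7 fell, 0 rose and 5 did not pass. SRC fell from 295 ± 16.1 to 131 ± 22.8 (SD, n = 3), a log2 difference of −1.10 (adjusted p = 4.7e-04), while its other tested probe set gave −0.10. PTPN1, a tyrosine phosphatase, fell by 0.31 (adjusted p = 0.0018). FYN, named after its values were seen, did not pass on its brightest probe set (0.15, limma, adjusted p = 0.052). Its other 4 tested probe sets were also higher in mutated cells, at 0.26 to 0.996. PTPN11 did not pass either (−0.13), with −0.33 to 0.34 on its other tested probe sets. Of the tensins and the vinexin family, 4 were tested and 0 passed with limma, and 0 had an unadjusted p under 0.05. A dimmer SORBS3 probe set, which does not represent the gene, gave 1.36.

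**Figure D3:**
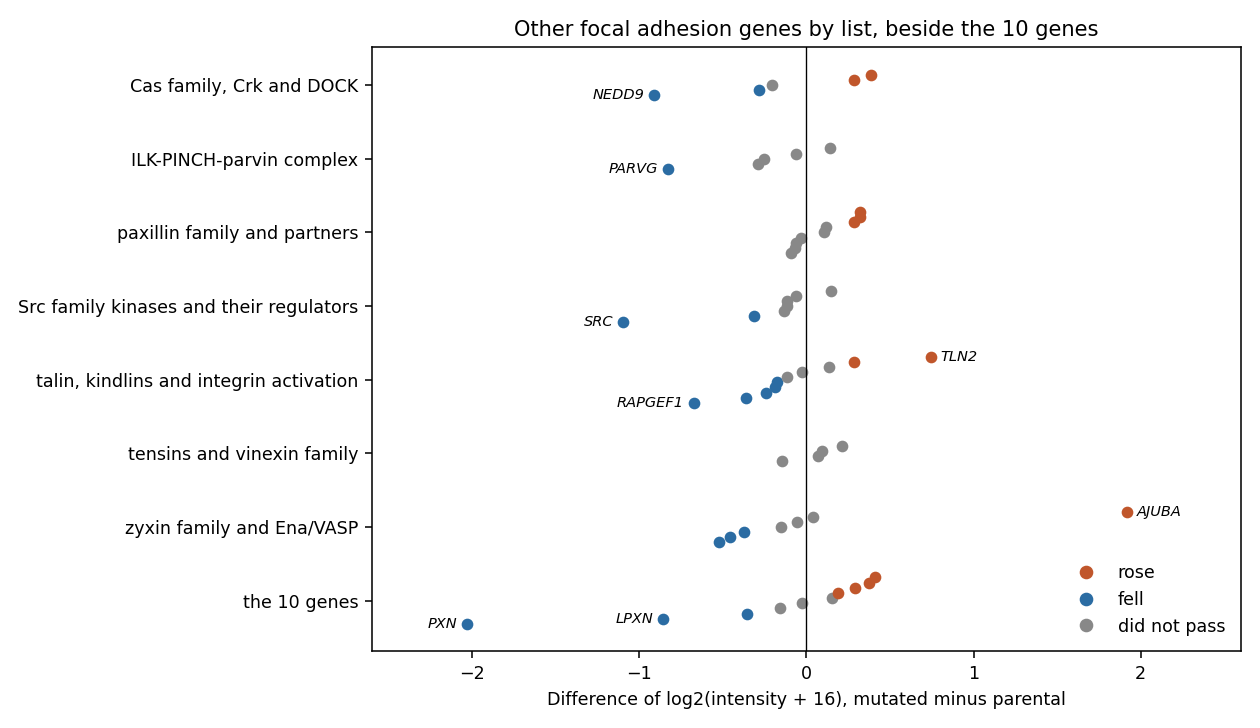
Difference of log2(intensity + 16), mutated minus parental, of the brightest tested probe set of each gene of 7 lists and of the 10 genes; names are given beyond 0.6. Blue points fell, orange points rose and grey points did not pass. Calls run both ways in the zyxin, talin and Cas lists, with AJUBA at 1.92 and SRC at −1.10 outside most other points, and PXN at −2.03.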

How the data were processed

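Total RNA was copied into biotin-labelled cRNA and hybridised to 6 one-colour arrays, per the labels' protocols. The authors deposited a linear intensity for each probe set. Neither label nor file header states their background correction or normalization. The number of arrays limits the precision, and no detection calls were used. From the deposited values log2(intensity + 16) was taken. The dimmest 40% of probe sets by overall mean were left out, and the other 32768 were fitted with limma 3.58.1 (lmFit, eBayes, two-sided; group as the only term) in R 4.3.3, with Benjamini-Hochberg adjustment and a threshold of 0.05. Samples were grouped by title. The fit was tested on simulated data. The members and lists were chosen with earlier results of these data known. The rule for names took every member and, of each other list, up to 4 called genes with the largest difference, plus the 5 genes most like PXN. Promoter letters were searched with Python 3.11.15; figures used matplotlib 3.10.9. Alternatives were other scalings, filters, variance models and pseudocounts, the replicate number as a block, other ways to represent a gene, and leaving out each sample. Replicate numbers were not taken to pair the samples.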

Additional observations from a re-analysis of the deposited data

How the results depend on the processing

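PXN kept its direction and its call under every alternative in which it was tested, with log2 differences of −2.88 to −1.12. With the dimmest 60% left out PXN was not tested, and 2 member probe sets and 2 member genes fell. With median centring 5 member probe sets and 2 member genes rose, against 8 and 4. Without the suffixes _s_at and _x_at LPXN read 0.031 and KANK2 −0.063. As the mean over probe sets GIT2 read −0.050, APBB1IP 0.16 and RAP1A 0.066, none of them past the threshold. The other counts of members and of the wider pathway stayed within 1.5 times. Over 31 single-gene and probe set values, 467 of 510 comparisons with an alternative kept direction and call, 33 lost the call, 2 gained it (both TLN1) and 8 turned sign. These 8 were the 5 above and 3 of values that had not passed: TLN1 with quantile normalization (−0.050), ZYX as the mean over probe sets (0.11) and PTK2 without mutated replicate 1 (0.085). Deviations of samples with the same replicate number correlated at 0.11, 0.027 and 0.11, and every sample correlated best with its own number. Whether samples of the same number share a culture or batch is not stated and was not tested, and the main fit takes no account of the number. With the replicate number as a block the SE was 0.065 against 0.14 for PXN, and 0.059 against 0.051 for LPXN. With the replicate number as a block 4 member probe sets fell and 9 rose. Dim values limit what can be said of PTK2, ZYX and BCAR1, and of PXN and the second PTK2B probe set in mutated cells.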

Other observations

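Of the 5 nearest tested genes on each side along chromosome 12, 1 fell, 2 rose and 7 did not pass, with log2 differences of −0.27 (BICDL1) to 0.37 (TRIAP1). Of all genes tested, 18.9% fell and 30.1% rose. PXN-AS1, a noncoding RNA gene named as antisense to PXN whose span overlaps that of PXN by 2382 bases in GRCh38.p14, read 55.7, 79.5 and 55.8 in parental and 74.0, 99.0 and 80.8 in mutated samples. Its groups overlapped and it did not pass (0.34, SE 0.14, and a limma p of 0.090 after Benjamini-Hochberg adjustment), while PXN read −2.03. These neighbours were chosen after the values of PXN were seen.

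Around LPXN on chromosome 11, 3 of 10 neighbours fell, 2 rose and 5 did not pass, where 49.0% of all genes were called. ZFP91, the next tested gene, fell from 1213 ± 27.3 to 949 ± 20.5 (SD, n = 3), a log2 difference of −0.35 (limma, adjusted p = 0.0013). FAM111B, a protease gene 4 tested genes away, fell by 0.83 (limma, adjusted p = 2e-04), FAM111A-DT beside it rose by 0.54 (limma, adjusted p = 0.0017), and the dim GLYATL2 and BTBD18 gave −0.48 and 0.30.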
